A study of Mus musculus with 4 samples.

Results

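The genes described here are Pramel6, Pramel7 and Pramel16 of mouse ESCs. They are 3 of the 36 genes named as Pramel family members among the 24116 genes of the count table. They were chosen by name, with their fold changes between G3 Terc-/- and WT ESCs already known, so their own differences in this comparison are given as values without a test. The older symbols Pramef25 and Gm13109 of Pramel16 were resolved by its gene identifier. RNA-seq libraries had been made from poly(A) RNA of WT ESCs and of G3 Terc-/- ESCs, which lack the RNA component of telomerase and were derived from blastocysts of intercrossed G2 Terc-/- mice. Both genotypes were of C57BL/6 background and were grown on feeder cells with serum and LIF, the cytokine that keeps ESCs undifferentiated. Each genotype was represented by 1 line (N12 for WT and F35 for G3 Terc-/-) and 2 libraries, so a difference between genotypes could not be told apart from a difference between lines.

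Pramel proteins are leucine-rich repeat proteins related to PRAME, an antigen of human melanoma, and in mice most of their genes lie in tandem clusters and are active in germ cells, oocytes or early embryos. PRAMEL7 is a protein of the inner cell mass that supports self-renewal of ESCs downstream of LIF and STAT3. Together with the CUL2 ubiquitin ligase it promotes the degradation of UHRF1, which brings the methyltransferase DNMT1 to newly replicated DNA. PRAMEL6 is a relative of PRAMEL7 that is also known from naive ESCs. Pramel16 has been listed, as Pramef25, among genes of 2-cell-like cells, the rare ESCs that express transcripts of the 2-cell embryo.

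Pramel7 (gene identifier 347712) lies on chromosome 2 of GRCm38 from 87489088 to 87492418 and Pramel6 (gene identifier 347711) next to it from 87506565 to 87510865. Pramel16 (gene identifier 329984) lies on chromosome 4 from 143948183 to 143951016, in a cluster of 24 Pramel family genes between 143394441 and 144408467. The 250 bases upstream of the RefSeq start of each gene (GRCm38.p6) are shown for the 3 genes, and for Pramel20 and Pramel31. Among the family genes whose transcripts were compared, those of Pramel20 and Pramel31 were the most like that of Pramel16. They are set side by side because Pramel16 is close to both genes in its transcript and not in the sequence upstream of its annotated start. Capitals mark matches to the motifs searched, on either strand.
Pramel6: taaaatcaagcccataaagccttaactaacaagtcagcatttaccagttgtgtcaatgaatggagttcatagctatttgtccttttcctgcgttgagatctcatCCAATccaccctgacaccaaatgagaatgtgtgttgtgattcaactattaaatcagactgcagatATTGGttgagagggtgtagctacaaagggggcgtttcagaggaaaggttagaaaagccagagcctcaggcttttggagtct
Pramel7: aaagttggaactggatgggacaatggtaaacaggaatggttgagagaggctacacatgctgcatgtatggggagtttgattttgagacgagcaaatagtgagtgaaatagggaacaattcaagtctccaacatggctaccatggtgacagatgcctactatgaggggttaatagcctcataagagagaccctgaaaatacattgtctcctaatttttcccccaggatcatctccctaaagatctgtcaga
Pramel16: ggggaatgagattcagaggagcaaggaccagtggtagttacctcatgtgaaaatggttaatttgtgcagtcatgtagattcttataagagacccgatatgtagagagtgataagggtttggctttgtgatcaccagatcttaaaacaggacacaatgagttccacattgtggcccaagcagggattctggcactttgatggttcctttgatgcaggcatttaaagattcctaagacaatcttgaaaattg
Pramel20: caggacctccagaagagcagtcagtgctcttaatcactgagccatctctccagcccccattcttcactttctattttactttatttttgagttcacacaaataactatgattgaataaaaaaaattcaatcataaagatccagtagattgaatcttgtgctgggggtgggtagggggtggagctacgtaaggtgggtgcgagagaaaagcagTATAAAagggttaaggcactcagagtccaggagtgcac
Pramel31: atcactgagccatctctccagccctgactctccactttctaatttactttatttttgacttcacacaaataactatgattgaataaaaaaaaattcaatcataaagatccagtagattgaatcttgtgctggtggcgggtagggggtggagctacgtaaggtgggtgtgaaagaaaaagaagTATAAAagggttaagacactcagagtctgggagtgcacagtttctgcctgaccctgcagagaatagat
These sequences are chr2:87506315-87506564 on the plus strand for Pramel6, chr2:87492419-87492668 on the minus strand for Pramel7 and chr4:143951017-143951266 on the minus strand for Pramel16. That of Pramel20 is chr4:143567217-143567466 and that of Pramel31 is chr4:144357714-144357963, both on the plus strand.

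Windows of 300 bases, the 250 shown and the first 50 of each gene, were searched on both strands for TATAAA (the TATA box), GGGCGG (the GC box), CCAAT (the CAAT box), CACGTG (an E-box), TTCNNNGAA (a STAT motif) and AAGGTCA (a site of nuclear receptors such as ESRRB). The windows of Pramel16 and Pramel7 held none of these 6 motifs. That of Pramel6 held CCAAT on each strand, from -146 to -142 and from -81 to -77 relative to the start. TATAAA stood from -38 to -33 in Pramel20 and from -68 to -63 in Pramel31. Of 32851 windows of RefSeq genes, 13.6% held TATAAA, 35.7% GGGCGG, 37.4% CCAAT, 7.15% CACGTG, 8.30% TTCNNNGAA and 4.72% AAGGTCA. The windows of Pramel7 and Pramel16 held 1 CG dinucleotide each and that of Pramel6 held 3, against a median of 7 over all windows, and 14.1% of all windows held 1 or fewer.

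Gene counts per library lay between 18047995 and 22520017. Terc, the gene deleted, was counted 7 and 2 times in WT, and its 0 counts in each G3 Terc-/- library allow up to 3. The ESC markers Pou5f1, Sox2, Nanog, Zfp42 and Esrrb were present in every library, with a summed level between 2530 and 2582 CPM (counts relative to library sizes scaled by edgeR's TMM method) in WT and between 3636 and 3754 CPM in G3 Terc-/- ESCs. All 17 markers of feeder fibroblasts were also detected in every library. Their summed level was 534 and 348 CPM in WT replicates 1 and 2 and 593 and 405 CPM in those of G3 Terc-/- ESCs. The ranges of the genotypes overlapped, with replicate 1 the higher in both. Of the 16 feeder fibroblast genes tested, 7 rose and 1 fell by adjusted p-value, with a median log2 fold change of 0.33, where 21.7% of all genes tested rose and 21.8% fell.

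Pramel16 was expressed more strongly in the G3 Terc-/- line than in the WT line. Its counts were 13 and 9 in WT against 154 and 112 in G3 Terc-/- ESCs. Both G3 Terc-/- libraries lay above both WT libraries in CPM, as they did for 34.4% of the 16694 genes with at least 10 counts. The libraries of each genotype lay close together. Its level was 0.500 ± 0.134 (SD, n = 2) CPM in WT and 6.54 ± 0.570 (SD, n = 2) CPM in G3 Terc-/- ESCs. Fitted by edgeR, its log2 fold change was 3.70 (standard error 0.27), the rank 24 from the top among the 14896 genes tested. Pramel16 passed the filter only through the G3 Terc-/- libraries and was chosen with its fold change known, so the rank is a description only. Leaving out single libraries moved the log2 fold change between 3.45 and 3.995. In such bulk libraries more cells with the transcript and more transcript per cell cannot be told apart. The part of feeder RNA in this difference was not tested.

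Pramel7 was at the limit of detection in both genotypes. Its counts were 3 and 10 in WT against 7 and 3 in G3 Terc-/- ESCs. The values of the genotypes overlapped, and the spread between the WT libraries was larger than the difference between the genotypes. The ratio of scaled counts, G3 Terc-/- over WT, was 0.838, with an exact binomial 95% interval from 0.329 to 2.07 that covers counting error only. A difference was thus not detectable at this depth.

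Pramel6, the neighbour of Pramel7, was counted 4 and 5 times in WT against 2 and 2 times in G3 Terc-/- ESCs. Both G3 Terc-/- libraries lay below both WT libraries in CPM, at 0.0901 and 0.110 against 0.183 and 0.225. The same held for 33.3% of the 16694 genes with at least 10 counts. The ratio of scaled counts was 0.484 with an interval from 0.109 to 1.73, and it too does not show a difference at this depth. Pramel6 and Pramel7 were below the filter on low counts, and their log2 fold changes without that filter were -1.02 (standard error 1.14) and -0.27 (standard error 0.80). That of Pramel7 turned to 0.81 without WT replicate 2 and to 0.09 without G3 Terc-/- replicate 2, so it had no stable direction.

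**Figure D1:**
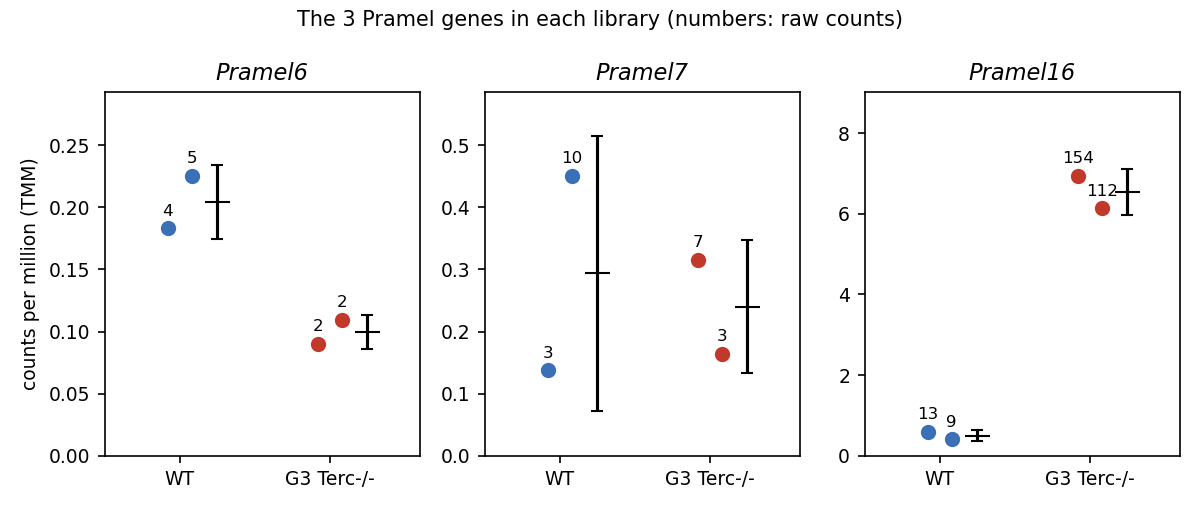
Levels of Pramel6, Pramel7 and Pramel16 in each library in CPM scaled by TMM, with a scale of its own for each gene; points are libraries, the number at a point is its raw count, and bars give the mean ± SD of 2 libraries. The counts of Pramel16 were 13 and 9 against 154 and 112, while Pramel6 and Pramel7 had at most 10 counts in any library.

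Per kilobase of transcript, the 3 genes were placed among the 21170 genes with a known length. In WT ESCs Pramel16 was at 0.353 and 0.241 CPM per kilobase, Pramel7 at 0.0738 and 0.242 and Pramel6 at 0.103 and 0.127. The order of the means was thus Pramel16, Pramel7 and Pramel6, but the values of Pramel7 overlapped those of both others. In G3 Terc-/- ESCs Pramel16 was at 4.12 and 3.64 CPM per kilobase, Pramel7 at 0.170 and 0.0883 and Pramel6 at 0.0506 and 0.0615. The range of Pramel16 lay above those of both others. The ranges of Pramel7 and Pramel6 did not overlap, but they rest on 7 and 3 against 2 and 2 counts, too few to order the genes. The level of Pramel16 exceeded that of 37.9% of the genes in WT and of 59.5% in G3 Terc-/- ESCs. Pramel7 exceeded 34.2% and 31.9% and Pramel6 exceeded 32.3% and 27.2% of the genes.

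**Figure D2:**
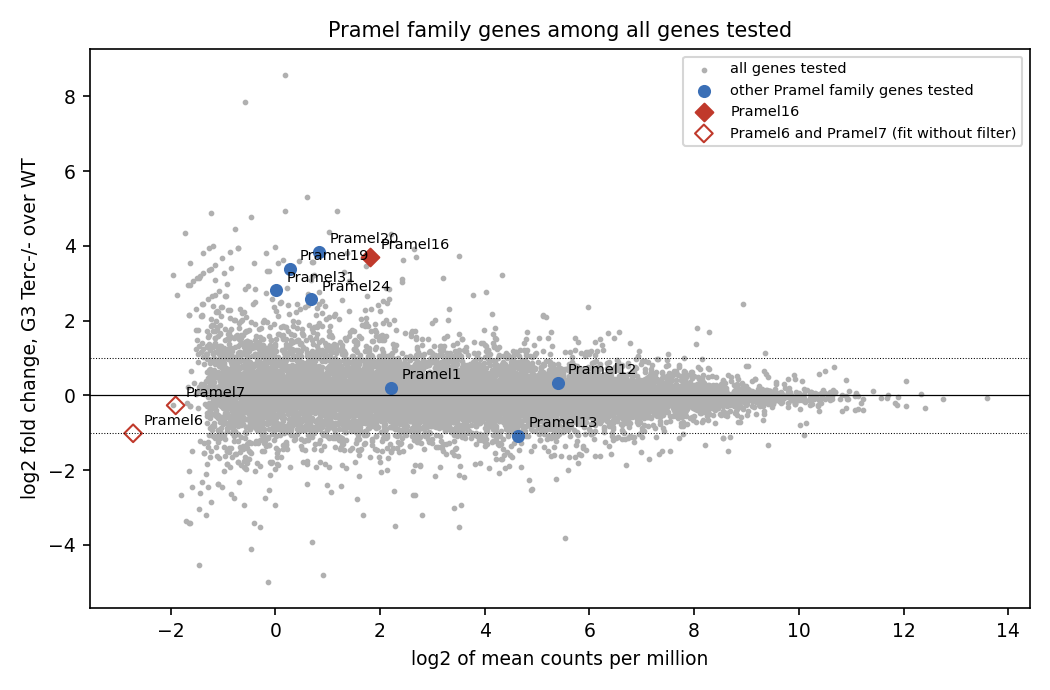
Log2 fold change, G3 Terc-/- over WT, against the log2 of the mean CPM over the genotypes for the 14896 genes tested (grey), with the Pramel family genes named and dotted lines at a fold change of 2. Pramel16 at 3.70 stands among Pramel19, Pramel20, Pramel24 and Pramel31, and Pramel6 and Pramel7 (open, from the fit without the filter) lie at the low end of the levels.

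Part of the reads of Pramel16 could have come from its near copies, and the sources used here do not say how reads with several matches were counted. Its transcript of 1684 bases was 96.8% identical to that of Pramel20 and 96.9% identical to that of Pramel31, over 1666 aligned bases each. Of its stretches of 100 bases, 26.5% were also found in transcripts of other genes, among them Pramel20, Pramel31 and Gm13057. Gm13057, whose transcript was 97.1% identical to Pramel16, had 0 counts in all 4 libraries. Gm13040 and Gm13043, each also 97.1% identical to Pramel16, had no entry of that name in the count table. The counts of Pramel16, Pramel20 and Pramel31 are therefore uncertain as counts of single genes. Pramel6 and Pramel7 shared no stretch of 100 bases with another gene, and Pramel7 was 75% identical to Pramel16 over 1451 aligned bases. Upstream of the annotated starts the picture was different. The window of Pramel16 aligned with those of Pramel20 and Pramel31 over 11 bases only, while those of Pramel20 and Pramel31 were 93.7% identical over 268 bases. The transcript alignments began at base 19 of Pramel16, against base 44 of Pramel20 and base 37 of Pramel31. Whether the annotated starts correspond was not tested.

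The family was taken by name, as genes with a current or older symbol of Prame, Pramel, Pramef or Oog. Near copies without such a name, among them Gm13057, were left out. The rest of the family comprised 33 genes of the count table, 21 of them in the same cluster as Pramel16. A further 17 family genes of RefSeq were not analysed here. No counts were found for 16 of the 33 genes and 1 to 9 counts in all for 7, which left 10 genes with at least 10 counts. In CPM, both G3 Terc-/- libraries lay above both WT libraries for 8 of these 10 and below for 1. Among the 16694 genes with at least 10 counts, 34.4% lay above and 33.3% below. However, Pramel14, Pramel17, Pramel19 and Pramel21 reached 10 counts only through the G3 Terc-/- libraries, so 8 of 10 is no support by itself. The filter left 7 of the 33 genes for edgeR's test. At a fold change of 2 and an unadjusted P value of 0.05, 4 of the 7 were higher and 1 was lower, where 4.73% of all genes tested were higher and 3.13% lower. The 4 that were higher passed the filter only through the G3 Terc-/- libraries, so the count of 4 is no support by itself. Without the filter 8 genes were higher, and under a mean of at least 50 counts 0 were.

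Pramel20, a near copy of Pramel16, had 8 and 2 counts in WT against 71 and 64 in G3 Terc-/- ESCs, which gave a log2 fold change at 3.85 ± 0.40 (SE). It moved to 5.12 without WT replicate 1 and to 3.17 without WT replicate 2. Pramel31, also a near copy, went from 4 and 7 to 47 and 26 counts (log2 fold change 2.81 ± 0.45 SE). Pramel24 had 8 and 12 counts in WT against 52 and 58 in G3 Terc-/- ESCs (log2 fold change 2.58 ± 0.36 SE). In contrast to Pramel16, its transcript shared 1.74% of its stretches of 100 bases with other genes, so that most of the Pramel24 transcript is sequence of its own. Pramel19 lies outside the cluster, from 101940407 on chromosome 4, and went from 5 and 4 to 47 and 42 counts (log2 fold change 3.39 ± 0.44 SE). Since these 4 genes passed the filter only where they were high, their fold changes are given as values, and no p-value is printed for them.

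Below the filter, 3 more family genes had at least 10 counts. Pramel17 lies near Pramel19 and is among the genes in which 37.8% of the 100-base stretches of Pramel19 recur. It had 1 and 0 counts in WT against 9 and 8 in G3 Terc-/- ESCs, a ratio of scaled counts of 18.5 with an interval from 2.90 to 774. Pramel14, 42.9 kb from Pramel16 in the cluster, had 0 and 1 counts in WT against 8 and 7 in G3 Terc-/- ESCs (ratio 16.3, interval from 2.51 to 688). Pramel21 had 0 and 3 counts in WT against 4 and 10 in G3 Terc-/- ESCs (ratio 5.08, interval from 1.42 to 27.6). All 3 lay above WT in both G3 Terc-/- libraries, without which none of them would have reached 10 counts. The wide intervals reflect the few WT counts.

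The 3 genes of the cluster with the highest levels in WT behaved differently. Pramel13 (formerly Pramef12) fell from 749 and 735 counts to 363 and 282 counts, with a log2 fold change at -1.08 ± 0.09 (SE, edgeR adjusted p = 8.82e-14). It overlaps Pramef12os on the other strand, and reads of the 2 genes cannot be told apart without strand. Pramel12 (formerly Pramef8) had 737 and 898 counts in WT against 1034 and 861 in G3 Terc-/- ESCs, a log2 fold change at 0.34 ± 0.08 (SE, edgeR adjusted p = 0.000419), which was 0.21 without WT replicate 1 and then missed the threshold (adjusted p = 0.100). Pramel1, with 88 and 101 counts in WT against 101 and 99 in G3 Terc-/- ESCs, had a log2 fold change at 0.21 ± 0.19 (SE, edgeR adjusted p = 0.384). Because Pramel13 and Pramel12 held most of the counts, the summed level of the 33 genes was 73.4 and 79.7 CPM in WT and 78.7 and 80.5 CPM in G3 Terc-/- ESCs. Without these 3 genes, a grouping made after the values had been seen, the sum was 1.33 and 1.53 CPM in WT and 11.2 and 12.4 CPM in G3 Terc-/- ESCs.

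**Figure D3:**
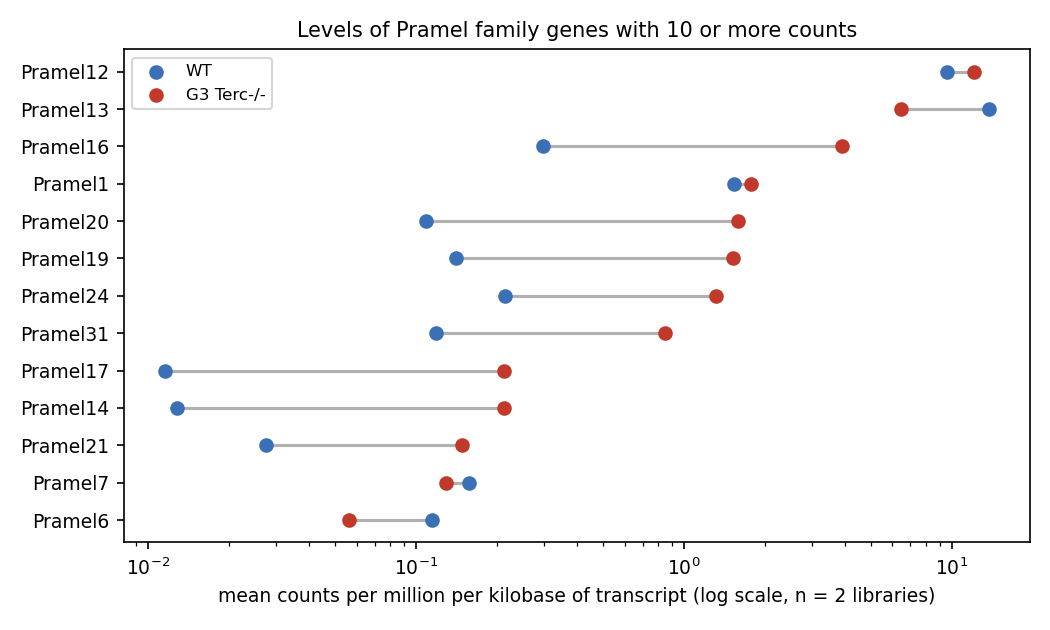
Mean level per kilobase of transcript, on a log scale and over 2 libraries of each genotype, of the 13 Pramel family genes with at least 10 counts. Pramel12 and Pramel13 were the most abundant in both genotypes, Pramel16 stood next to them in G3 Terc-/- ESCs, and Pramel6 and Pramel7 were the lowest there.

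Few genes that are not of the family were tested around Pramel16. Within 1 Mb of the cluster 6 such genes were tested, with a median log2 fold change of 0.16 and a range from -0.67 to 1.16, against a median of 0.00625 over all genes tested. Of the 6, 3 rose and 1 fell by adjusted p-value, where 21.7% of all genes were higher and 21.8% lower. The nearest on the upper side of Pramel16, Vps13d, had a log2 fold change at 0.14 ± 0.07 (SE, edgeR adjusted p = 0.127). With single libraries left out, that of Vps13d ranged from 0.06 without WT replicate 2 to 0.22 without WT replicate 1. Around Pramel6 and Pramel7, the nearest genes tested on the upper side were 2919 kb or more away. Below them lie P2rx3 (log2 fold change 0.92, edgeR adjusted p = 0.0150), Ssrp1 (-0.13, adjusted p = 0.0308) and Tnks1bp1 (-0.27, adjusted p = 0.00242). The call of P2rx3 was lost under DESeq2 (adjusted p = 0.136), without WT replicate 2 (0.0837) and without G3 Terc-/- replicate 2 (0.145). That of Ssrp1 was lost with library totals (adjusted p = 0.121), without WT replicate 1 (0.187), without WT replicate 2 (0.250) and without G3 Terc-/- replicate 2 (0.0909), and that of Tnks1bp1 without WT replicate 1 (0.125). Above them lie Ptprj (0.74, adjusted p = 6.51e-07), Nup160 (-0.12, adjusted p = 0.0636) and Fnbp4 (-0.11, adjusted p = 0.0853). On the upper side only Ptprj passed the test among these 3 genes in the main fit. Under edgeR with a block for the replicate number, Nup160 (adjusted p = 0.0219) and Fnbp4 (0.0345) passed as well. Nup160 also passed without the filter (0.0405).

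**Figure D4:**
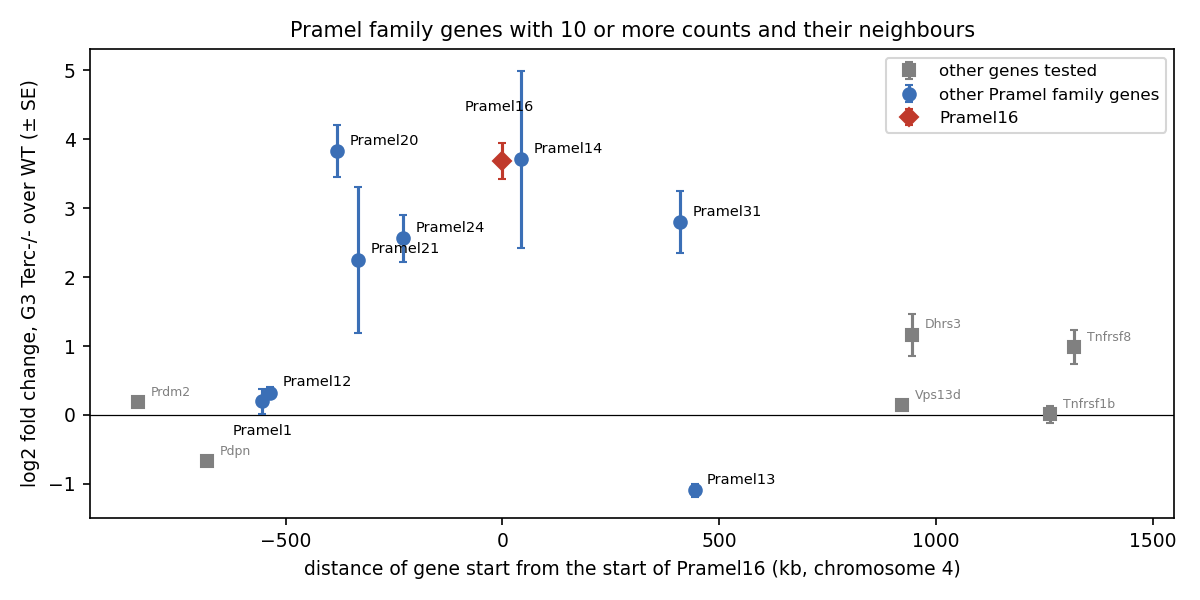
Log2 fold changes, G3 Terc-/- over WT, with standard errors against the distance of each gene's start from that of Pramel16 in kb, for the Pramel family genes of the cluster with at least 10 counts (from the fit without the filter) and for the 6 other genes tested within 1 Mb. Pramel16, Pramel20, Pramel21, Pramel24, Pramel14 and Pramel31 lie above 2, whereas Pramel1 and Pramel12 lie near 0 and Pramel13 lies below -1.

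The pathway in which PRAMEL7 acts was examined at the level of RNA only, which does not show degradation of the UHRF1 protein. The list held 15 genes of its ubiquitin ligase and of DNA methylation, all of which were tested. By adjusted p-value 5 rose and 5 fell, where 21.7% of all genes tested rose and 21.8% fell, and the median log2 fold change was 0.02. Uhrf1, the target of PRAMEL7, had 10255 and 10730 counts in WT against 10925 and 8597 in G3 Terc-/- ESCs, a log2 fold change at 0.02 ± 0.05 (SE, edgeR adjusted p = 0.818) that turned to -0.00584 without WT replicate 1 and to -0.02 without G3 Terc-/- replicate 1. Cul2, the scaffold of the ligase, was higher by 0.27 (SE 0.05, edgeR adjusted p = 4.92e-05), and Dnmt1 had a log2 fold change of -0.07 (adjusted p = 0.227), or -0.12 (adjusted p = 0.0211) without G3 Terc-/- replicate 1. The de novo methyltransferases fell, Dnmt3b from 11230 and 11596 to 5129 and 4405 counts (log2 fold change -1.13 ± 0.05 SE, edgeR adjusted p = 1.59e-22) and Dnmt3a by 0.50 on the log2 scale (adjusted p = 1.46e-11). Their cofactor Dnmt3l was higher by 0.31 (adjusted p = 1.47e-06). Dppa3, which keeps UHRF1 away from chromatin in the oocyte, fell from 1234 and 1293 to 515 and 477 counts (log2 fold change -1.22 ± 0.08 SE, edgeR adjusted p = 2.94e-17), although the 100 genes tested within 5 Mb of it on chromosome 6 had a median of 0.54.

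LIF and STAT3 signalling, upstream of PRAMEL7, was likewise examined as RNA, which does not show whether the STAT3 protein was active. Of the 16 genes listed, 2 rose and 9 fell by adjusted p-value, against 21.7% and 21.8% of all genes tested. Their median log2 fold change was -0.22. Lifr, a receptor chain of LIF, had a log2 fold change of 0.08 (edgeR adjusted p = 0.338) and Stat3 of -0.00302 (adjusted p = 0.971), which turned to 0.03 when library totals were used without TMM. The STAT3 target Socs3, an inhibitor of the pathway, fell by 0.39 on the log2 scale (SE 0.06, edgeR adjusted p = 5.99e-07). The kinase gene Pim1 fell by 0.55 (adjusted p = 7.11e-12) and Myc by 0.76 (adjusted p = 2.98e-11). Tfcp2l1, a naive pluripotency factor, rose by 0.80 (SE 0.05, edgeR adjusted p = 9.50e-18), against the direction of most genes called in the list.

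Genes of naive pluripotency were mostly higher, 13 of 16 by adjusted p-value with 3 lower, against 21.7% higher and 21.8% lower among all genes tested, and a median log2 fold change of 0.47. Tbx3 rose from 2536 and 2682 to 8745 and 7958 counts (log2 fold change 1.81 ± 0.05 SE, edgeR adjusted p = 1.13e-27). Nanog rose by 1.13 (SE 0.05, edgeR adjusted p = 4.74e-23) and lies on chromosome 6, where the 101 genes tested within 5 Mb of it had a median of 0.54. Dppa5a fell by 0.79 on the log2 scale (SE 0.05, edgeR adjusted p = 7.78e-18).

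The genes of the 2-cell stage had fold changes of the size of that of Pramel16. Of the 17 that had been counted, 13 were tested. All 13 were higher at a fold change of 2 and by adjusted p-value, where 4.73% and 21.7% of all genes tested were, and their log2 fold changes ran from 2.23 to 4.78 with a median of 3.29. Of the 13, 8 passed the filter only through the G3 Terc-/- libraries, as Pramel16 did, and had to differ, while 5 would have passed in WT alone. Zscan4d, of the Zscan4 genes that mark 2-cell-like cells, had 18 and 22 counts in WT against 243 and 234 in G3 Terc-/- ESCs (log2 fold change 3.70 ± 0.21 SE, edgeR adjusted p = 1.05e-18). Zscan4a rose by 3.62 and Zscan4c by 3.03, and near copies among the Zscan4 genes make single counts uncertain there too. The 4 genes below the filter, Tdpoz1, Tdpoz2, Tdpoz3 and Tdpoz4, had at most 10 counts in any library.

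Germline genes that depend on DNA methylation for their silencing, a list that shares Zfp42 with that of naive pluripotency, changed in both directions. Of 18 tested 6 rose and 2 fell by adjusted p-value, where 21.7% of all genes tested rose and 21.8% fell, with a median log2 fold change of 0.08. Dazl, an RNA-binding protein of germ cells, rose from 198 and 211 to 492 and 444 counts (log2 fold change 1.32 ± 0.11 SE, edgeR adjusted p = 9.83e-14). Syce1 rose by 1.21 (edgeR adjusted p = 3.15e-11), and Tex19.1 fell by 0.59 on the log2 scale (adjusted p = 3.47e-11). The other gene that fell, Stk31 (log2 fold change -0.85), lies on chromosome 6. The 56 genes tested within 5 Mb of Stk31 had a median of -0.83.

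**Figure D5:**
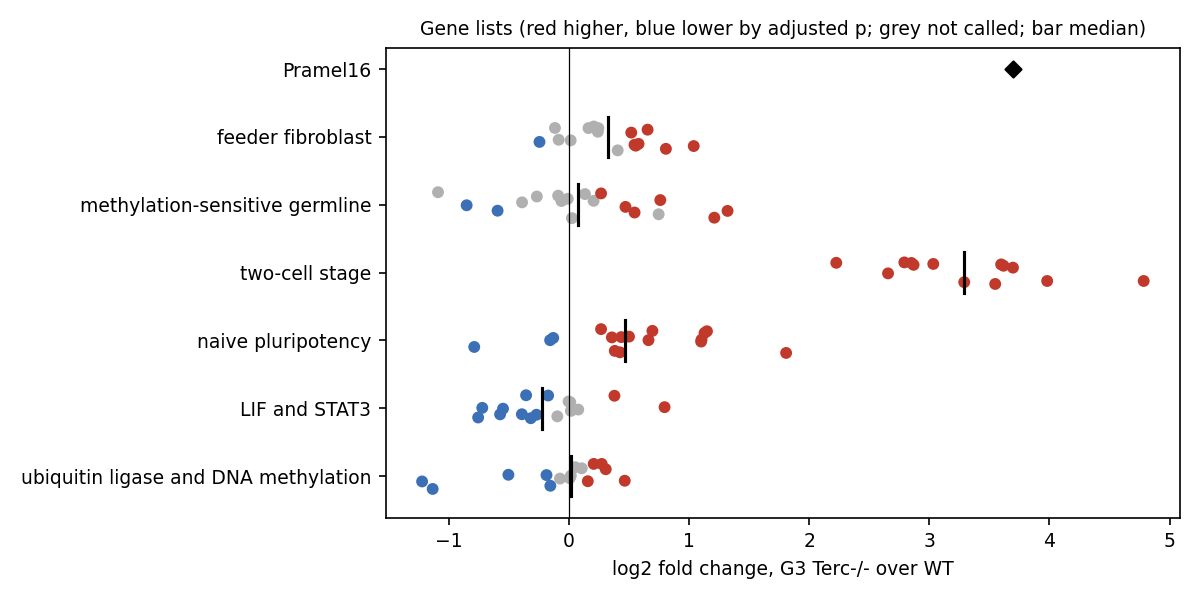
Log2 fold changes, G3 Terc-/- over WT, of the genes tested in each list, with the median as a bar and Pramel16 as a diamond; red points were higher and blue points lower by adjusted p-value, and grey points were not called. The genes of the 2-cell stage run from 2.23 to 4.78 around Pramel16 at 3.70, and the other lists lie between -1.22 and 1.81.

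The genes most like Pramel16 in their levels over the 4 libraries were Vax2os, Gm5039, Nefm, A2m and Zscan4a, at distances of 0.233, 0.258, 0.342, 0.361 and 0.523. The distance is Euclidean, over centred log2 CPM of 4 libraries, and was computed over the 12176 genes that averaged 50 or more counts. Nefm, a neurofilament subunit, had 43 and 27 counts in WT against 439 and 409 in G3 Terc-/- ESCs. A2m and Vax2os lie on chromosome 6, where the genes tested within 5 Mb of them had medians of 0.54 and 0.41. For Pramel6 the nearest were Gstt2, Uggt2, Tbc1d32, Ipp and Zfp212, at distances from 0.0173 to 0.0394, and for Pramel7 they were 4931403G20Rik, Zfp94, Cacng8, 4933407K13Rik and Mir5116, at distances from 0.350 to 0.590. With 4 libraries many genes share such a profile, and those of Pramel6 and Pramel7 rest on at most 10 counts in any library.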

How the data were processed

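Reads were mapped on mm10 by STAR at default settings, and the authors deposited raw counts under NCBI gene identifiers without normalization. The submitters' processing notes also name Trim Galore and featureCounts, without role or version. Strand setting of the counting and its treatment of reads with several matches are not given in the sources used here. RefSeq for GRCm38.p6, the same build, gave symbols for 24061 of 24116 genes. Counts of repeat copies were also deposited and were not used here.

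Fold changes were fitted with edgeR 4.0.16 in R 4.3.3 (TMM, filterByExpr, quasi-likelihood test with genotype alone) over all genes, with Benjamini-Hochberg adjustment, and CPM used TMM-scaled library sizes. The study's cutoffs were a fold change of 2 at a P value of 0.05. Pramel6 and Pramel7 did not pass filterByExpr, so their values come from the fit without it. Levels per kilobase used the longest GENCODE M21 transcript, and pairs were aligned locally with Biopython 1.88. Figures were drawn with matplotlib 3.10.9. Intervals and floors cover counting error only. The replicates are called biological, but nothing says that they came from separate cultures, so p-values may measure technical spread.

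The text names the 3 genes, each family gene tested, the 3 smallest p-values per list together with 9 pathway genes and Stk31, the nearest 3 genes on each side, and the 5 genes most alike. Members and lists were chosen with earlier results of these data known. The code was tested on simulated data. The alternatives were DESeq2 1.42.0, its size factors in edgeR, library totals, a block for the replicate number, no filter, a mean of at least 50 counts, log2 CPM with a prior count of 2 and each library left out in turn.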

Additional observations from a re-analysis of the deposited data

How the results depend on the processing

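The log2 fold change of Pramel16 (3.70) ranged from 3.45 without WT replicate 2 to 3.995 without WT replicate 1 and kept its direction under all 11 alternatives run. That of Pramel6 (-1.02) ranged from -1.15 to -0.86 with each library left out and was -0.62 as a difference of log2 CPM with 2 counts added. That of Pramel7 (-0.27) ranged from -0.86 to 0.81 with each library left out, and reversed to 0.81 without WT replicate 2 and 0.0914 without G3 Terc-/- replicate 2. A left-out library leaves 1 in its group, which is assumed to vary like the other group. Pramel6 and Pramel7 gave no value under a mean of at least 50 counts, by construction. Under that filter 285 genes were higher and 271 lower at the cutoffs, in place of 704 and 466, and 0 other family genes were higher in place of 4, while without a filter 8 were, because the filters test fewer or more genes. Among the lists, 38 genes were higher and 19 lower by adjusted p-value, and every alternative run stayed within 1.5 times these. In the fit with a replicate block the log2 fold change of Pramel16 was 3.69 and 700 genes were higher and 461 lower. The labels tie the numbers to no shared batch, and the differences between the libraries of each genotype correlated at 0.167 over 12177 genes, so the numbers were not taken as pairs. Of the 36 other single genes, 4 lost and 4 gained a call under some alternative. With each library left out Uhrf1 ranged from -0.0155 to 0.0507 and turned to -0.00584 without WT replicate 1 and -0.0155 without G3 Terc-/- replicate 1. Stat3 ranged from -0.0506 to 0.0464 and turned to 0.0325 with library totals, 0.00987 at a mean of at least 50 counts, 0.0464 without WT replicate 2 and 0.00230 without G3 Terc-/- replicate 2. The cause was not tested.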
